A study of Homo sapiens with 6 samples.

Results

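The 7 genes described here, PAX8, WT1, EPCAM, FOLR1, WFDC2, MSLN and MUC16, are lineage and marker genes of ovarian carcinoma, and were chosen by name. Each was examined as a window that holds the gene and 10 kb on both sides, in the hg19 coordinates of the peak lists. SKOV3WT cells, an established human ovarian carcinoma line, had been left without drug or had received vorinostat or romidepsin at 1 times the IC50 for 24 h, and chromatin with histone 3 acetylated at lysine 9 (H3AcK9) was sequenced. All 3 conditions used the same wild-type cells and the same antibody, with 1 ChIP sample each, so replicates cannot be set beside any difference given here. For each treated sample the authors deposited 2 peak lists, printed as list 1 and list 2. The study describes them in 1 place as a divided sample and elsewhere as separate experiments, so it is not settled here whether their spread is technical or biological. The labels give 1 sample per condition, so the lists were not counted as replicates, and a treated value is their mean unless a list is named. The windows held 84 of the 376666 untreated peaks, 218 of 912311 and 218 of 913199 vorinostat peaks, and 224 of 896878 and 247 of 884242 romidepsin peaks.

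Acetylation of H3 at lysine 9 is placed on nucleosomes at promoters and enhancers of active genes, and histone deacetylases remove it. Vorinostat, a hydroxamate, inhibits deacetylases of several classes, and romidepsin, a depsipeptide, prefers class I. PAX8 is a paired-box transcription factor of Müllerian epithelium, from which many ovarian carcinomas take their lineage, and WT1 is a zinc finger transcription factor used as a marker of the serous type. EPCAM is an epithelial adhesion protein, FOLR1 a folate receptor of the cell surface, and MSLN a surface glycoprotein that binds MUC16, the mucin that carries the CA125 antigen. WFDC2 encodes HE4, a secreted protein measured in serum beside CA125. A peak is a called stretch of enrichment, so covered bases describe where acetylation was called, not how much of it there was, and RNA was not measured in these files.

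The bases just before the gene start are shown for PAX8 and WFDC2, with a start under peaks in every list, and for WT1, with a start under peaks in 4 of the 5 lists. They are the 250 bases before the start in the RefSeq table of GRCh38.p14, which held entries for 4 of the 7 genes. The entries for MUC16 belong to starts further upstream than the one used for the peaks, outside its window, and are not shown. This is not the build of the peak lists, so the sequences were matched by gene name and no peak was placed on them. Entries were not found for EPCAM, FOLR1 and MSLN. Capitals mark the GC box GGGCGG on either strand.
PAX8, chr2:113278922-113279171, minus strand: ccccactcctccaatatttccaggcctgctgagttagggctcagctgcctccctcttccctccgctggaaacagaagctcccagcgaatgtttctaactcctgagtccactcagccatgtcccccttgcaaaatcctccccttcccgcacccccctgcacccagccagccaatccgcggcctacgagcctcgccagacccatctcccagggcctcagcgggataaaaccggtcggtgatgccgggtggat
WFDC2, chr20:45469503-45469752, plus strand: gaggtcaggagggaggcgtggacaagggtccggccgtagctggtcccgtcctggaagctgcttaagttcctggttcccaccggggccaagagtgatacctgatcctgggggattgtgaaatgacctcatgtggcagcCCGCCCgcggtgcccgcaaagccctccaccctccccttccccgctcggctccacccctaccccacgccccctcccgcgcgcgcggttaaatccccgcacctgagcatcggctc
WT1, chr11:32435540-32435789, minus strand: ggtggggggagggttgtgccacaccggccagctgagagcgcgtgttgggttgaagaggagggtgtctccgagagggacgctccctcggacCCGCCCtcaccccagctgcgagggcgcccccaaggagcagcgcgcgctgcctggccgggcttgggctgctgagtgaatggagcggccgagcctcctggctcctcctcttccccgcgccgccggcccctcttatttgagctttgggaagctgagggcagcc

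The CG dinucleotide occurred 19 times in the WT1 and in the WFDC2 sequence and 11 times in PAX8, against a median of 11 over the 35116 sequences of the table. The GC box was found once in WT1 and once in WFDC2, and 42.6% of all sequences held it on either strand. CCAAT, searched on both strands, was found 2 times in PAX8 and in 32.0% of all sequences. TATAAA, on both strands, was in none of the 3 and in 10.7% of all sequences. The motifs were counted separately, and a match is a description of letters only.

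In untreated cells the windows differed widely. Peaks covered 84.7% of the PAX8 window, 64.3% of FOLR1, 52.0% of EPCAM, 41.7% of WFDC2, 21.8% of MSLN, 21.0% of WT1 and 3.31% of MUC16. The mean over all 50 kb tiles of the genome was 12.0%, so 6 windows lay above it and MUC16 below. This mean includes tiles without peaks, and how many tiles lay above it was not counted. The windows were placed on genes and the tiles were not. PAX8 had the highest share and the mucin gene MUC16 the lowest. With 1 untreated sample no spread can be set beside this order, and the neighbours MSLN and WT1 differ by less than the lists of any treated sample did at either gene.

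After either drug every window held more peaks than before, in both lists. The 84 untreated peaks of the 7 windows increased 2.60-fold with vorinostat and 2.80-fold with romidepsin. The same direction was common elsewhere: of the 38445 genome tiles with at least 500 untreated covered bases, 92.6% held more peaks in both vorinostat lists and 86.5% in both romidepsin lists. The fold change per gene ran from 1.72 at MSLN to 4.14 at MUC16 for vorinostat, and from 2.07 at WT1 to 3.50 at MUC16 for romidepsin. Peaks were narrower at the same time, as they were over the whole lists. The median width of all peaks was 537 bp untreated, 206 and 203 bp with vorinostat, and 219 and 215 bp with romidepsin. At EPCAM the median width was 979 bp in the untreated list, 260 and 401 bp in the lists for vorinostat, and 259 and 370 bp in those for romidepsin.

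Covered bases moved less, and in both directions. A window was called higher where both lists of a drug held at least 1.5-fold more covered bases than the untreated list, and lower where both held at least 1.5-fold fewer. All 7 genes exceeded the minimum of 500 untreated bases. With vorinostat 1 gene was called higher (MUC16) and 2 lower (WT1 and EPCAM), where 13.1% and 21.3% of the genome tiles were called in these directions. With romidepsin 2 genes were called higher (MSLN and MUC16) and 1 lower (WT1), where 11.9% and 24.0% of the tiles were called. The median fold change of the 7 windows was 0.691 for vorinostat and 0.927 for romidepsin, beside 0.862 and 0.878 over all tiles. The median untreated coverage of these tiles was 11.3%, below that of every window but MUC16. In tiles with 15 to 30, 30 to 60 and 60 to 100% untreated coverage the medians were 0.793, 0.764 and 0.798 for vorinostat. For romidepsin they were 0.900, 0.907 and 0.895. With peaks merged across gaps of up to 500 bp the median of the 7 windows for romidepsin was 1.09. The comparisons of the drugs with untreated cells share the untreated list, so a high or low untreated value moves both.

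PAX8 lay within a domain of separate acetylation peaks that covered 80.8% of the gene in the untreated list. Its window held 71142 covered bases without drug, 64147 and 63275 with vorinostat and 69628 and 63291 with romidepsin, on chr2:113963001-114047000. All 4 treated values were lower than the untreated one, but the mean fold changes were 0.896 for vorinostat and 0.934 for romidepsin. With merged peaks they were 1.03 and 1.06, on the other side of 1, and with only peaks of a score of at least 1 they were 0.106 and 0.137. The untreated peak over the gene start was the widest of all windows, 22415 bp, from 11315 bp before to 11100 bp after the start. In its span lay 6 and 8 vorinostat peaks and 10 and 19 romidepsin peaks, which covered between 77.5 and 88.5% of it. The peak over the start itself was 13488 and 4738 bp wide with vorinostat and 10131 and 1488 bp wide with romidepsin, so the lists of a drug differed more in where they divided the domain than in the bases they covered. The long non-coding gene PAX8-AS1 and the gene PSD4 also lie within 10 kb of PAX8 in the reference assembly, and the peaks cannot be assigned to one of them.

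At WT1, the other transcription factor, peaks covered fewer bases with both drugs. The window on chr11:32399001-32467000 held 14293 covered bases without drug, 6699 and 9155 with vorinostat, and 6718 and 9316 with romidepsin. Each treated list lay below the untreated one, with fold changes of 0.555 and 0.561, although list 2 exceeded list 1 by a factor of 1.37 and 1.39. Tiles with a like untreated coverage of 15 to 30% had median fold changes of 0.793 and 0.900, with lower quartiles of 0.621 and 0.691, and the mean of WT1 was below the lower quartile for each drug. List 2 of vorinostat, at 0.641, lay above it. With only peaks of a score of at least 1 kept, the fold changes were 0.188 and 0.259, and with merged peaks 0.667 and 0.659.

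Within WT1 12172 bases were covered in the untreated list, 5279 and 6670 in those of vorinostat and 5605 and 6642 in those of romidepsin. The upstream flank went from 628 to 790 and 1404 bases with vorinostat, and to 339 and 906 with romidepsin, where the lists straddled the untreated value. The downstream flank held 1493 bases without drug, 630 and 1081 with vorinostat, and 774 and 1768 with romidepsin, so both lists were lower with vorinostat only. The untreated peak over the start ran from 628 bp before to 3379 bp after it, a width of 4007 bp. After vorinostat a peak of 1246 and 1257 bp was left there, from 493 and 535 bp before to 753 and 722 bp after the start. After romidepsin a peak of 1535 bp was over the start in list 2, and list 1 had its nearest peak 60 bp downstream, 796 bp wide. All 4 treated lists had a peak within 2 kb of the start, and each covered a smaller part of the 4 kb around it: 2628 bp in untreated cells, 1246, 1257, 828 and 1535 bp in the treated lists. The antisense gene WT1-AS lies within 10 kb of WT1 in the reference assembly, and peaks have no strand.

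**Figure D1:**
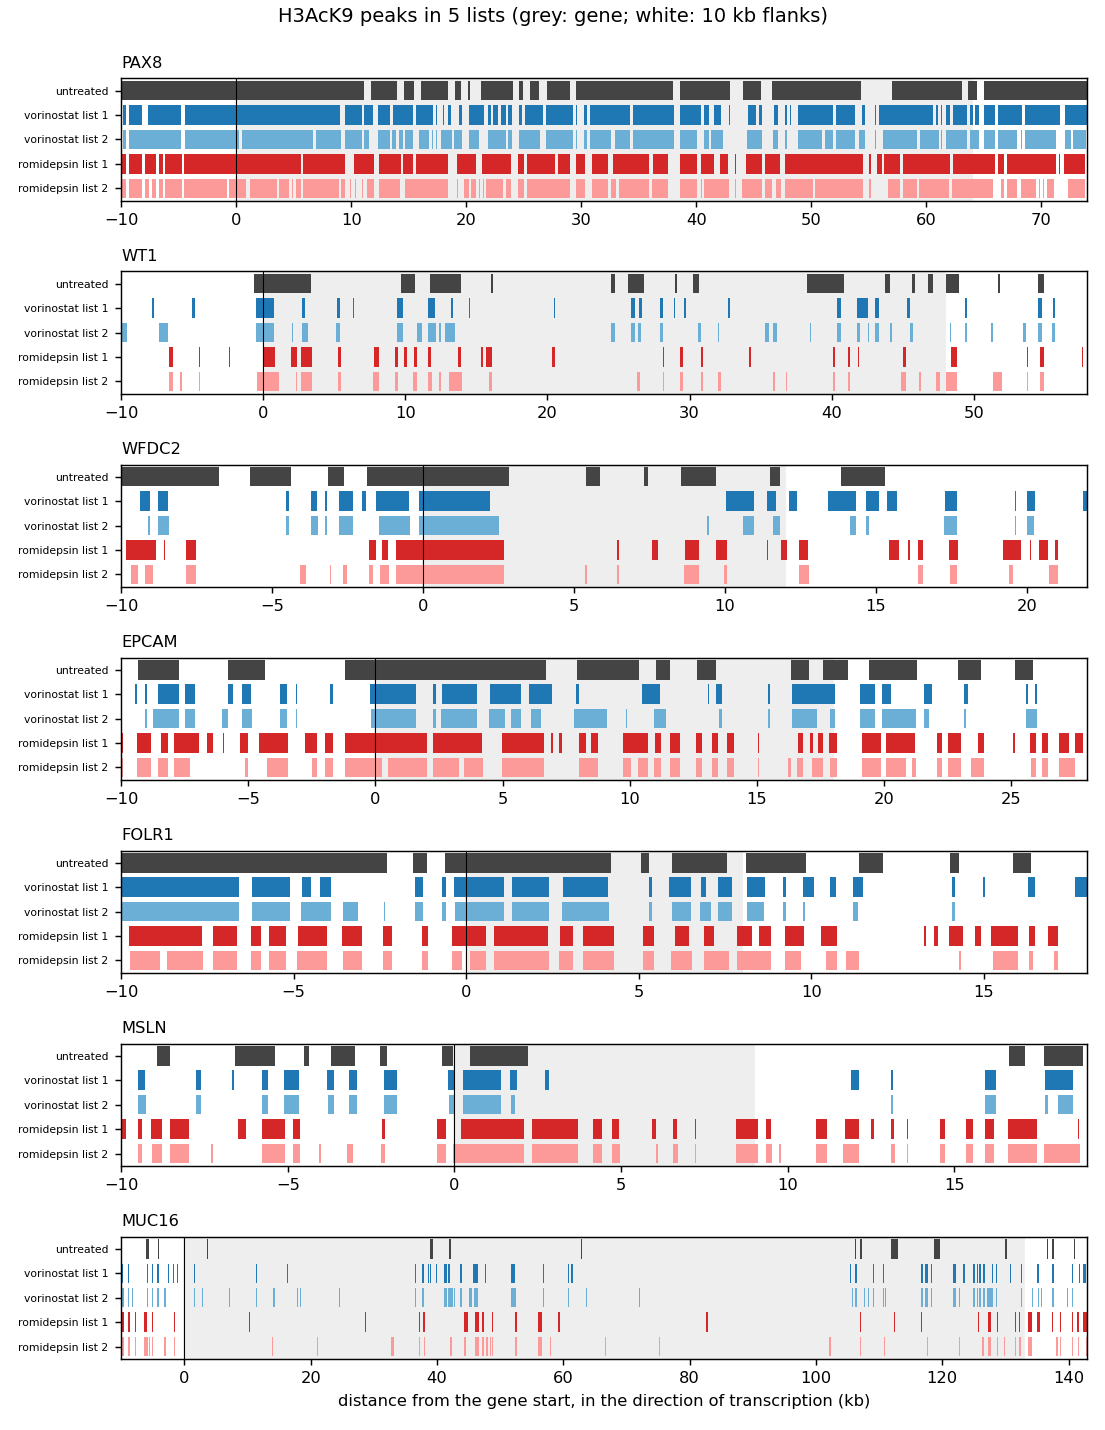
Peaks of each list as bars along the 7 windows, with the distance from the gene start in kb in the direction of transcription, the gene shaded in grey and the 10 kb flanks in white. The broad untreated peaks of PAX8, EPCAM and FOLR1 appear as several narrower ones after treatment, and MSLN has peaks inside the gene in the romidepsin lists where the other lists have none.

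EPCAM differed between the drugs. Its window on chr2:47586001-47624000 held 19775 covered bases in the untreated list, 12347 and 13078 for vorinostat and 19266 and 17388 for romidepsin. Both vorinostat values were below both romidepsin values, which in turn were below the untreated one. The fold change was 0.643 for vorinostat, called lower, and 0.927 with romidepsin, not called. Tiles with a like untreated coverage of 30 to 60% had median fold changes of 0.764 and 0.907, so they too were lower with vorinostat. For vorinostat their lower quartile was 0.648, with list 1 of EPCAM below it at 0.624 and list 2 above it at 0.661. Both romidepsin lists lay between the quartiles of 0.758 and 1.08. The untreated peak over the start was 7882 bp wide, from 1179 bp before to 6703 bp after it. Upstream of the start, romidepsin peaks began at 1188 bp in both lists, near the untreated edge, whereas vorinostat peaks began at 201 and 177 bp. In the 4 kb around the start, 3179 bp were covered without drug, 1912 and 1757 bp with vorinostat and 3486 and 3243 bp with romidepsin. The fold changes there were 0.577 and 1.06. With only peaks of a score of at least 1 kept, those of the whole window were 1.23 and 1.45. With merged peaks they were 0.799 for vorinostat, no longer called lower, and 1.26 for romidepsin. Downstream of the gene, vorinostat lists covered 1653 and 2710 bases and romidepsin lists 4305 and 4105, beside 4056 in untreated cells. Inside the gene the drugs were closer, and both lay below the untreated value. There 11481 bases were covered without drug, 8033 and 7705 with vorinostat and 9407 and 9045 with romidepsin. The fold changes inside the gene were 0.685 and 0.804, and neither drug was called.

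FOLR1 was covered less after either drug, by smaller factors. The window on chr11:71890001-71918000 held 18009 covered bases in the untreated list, 12622 and 12260 in those for vorinostat and 14026 and 13679 in those for romidepsin. The lists of a drug were close, with list 2 over list 1 at 0.971 and 0.975, and neither drug reached the threshold, with fold changes of 0.691 and 0.769. Tiles with an untreated coverage of 60% or more had median fold changes of 0.798 and 0.895 and lower quartiles of 0.721 and 0.806, and all 4 FOLR1 lists lay below these quartiles. With merged peaks the value for romidepsin was 1.09. With only peaks of a score of at least 1 kept, the values were 0.0616 for vorinostat and 0.530 for romidepsin. The widest untreated peak, of 8982 bp, lay upstream and ended 2291 bp before the start, and 64.1 to 69.0% of it was covered in the treated lists. A second untreated peak of 4818 bp ran over the start. It was met by separate treated peaks, of which the one over the start was 1449 and 1441 bp wide after vorinostat and 980 bp in the first romidepsin list. In the second romidepsin list no peak covered the start, and peaks ended 124 bp before it and began 120 bp after it. The long non-coding gene FOLR1-AS1 lies within 10 kb of FOLR1 in the reference assembly, so peaks cannot be assigned to one of them.

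The start of WFDC2 stayed under a peak, a shorter one than in untreated cells, while the region upstream was covered less. Its window on chr20:44088001-44120000 had 13337 covered bases in the untreated list, 9047 and 6499 in those of vorinostat and 8986 and 7077 in those of romidepsin. The fold changes were 0.583 and 0.602, and neither drug was called, since list 1 of each stayed just above the threshold at 0.678 and 0.674. In the 10 kb before the gene, untreated peaks covered 6999 bases and treated peaks 2824, 2344, 2722 and 2521. The 4 kb around the start went from 3858 bp to 3370 and 3152 with vorinostat and to 3332 and 3303 with romidepsin. Around the start of WFDC2 at least 78.8% of the bases were thus covered in every list. Its untreated start peak was 4705 bp wide, from 1858 bp before to 2847 bp after the start. In both romidepsin lists it was 3578 bp wide, from 899 bp before to 2679 bp after the start. In the vorinostat lists it was 2356 and 2642 bp wide and began 129 bp before the start in both. With only peaks of a score of at least 1 kept, the fold changes of the window turned to 1.17 and 2.08.

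At MSLN the values lay on opposite sides of the untreated one with the 2 drugs. Peaks covered 6330 bases of its window on chr16:800001-829000 in the untreated list, 5053 and 4301 in those for vorinostat and 10151 and 11297 in those for romidepsin. Both vorinostat lists lay below the untreated value, with a fold change of 0.739, and both romidepsin lists above it, with 1.69. Tiles of a like untreated coverage had upper quartiles of 1.01 for vorinostat and 1.18 for romidepsin. With only peaks of a score of at least 1 kept, the values were 0.136 for vorinostat and 0.576 for romidepsin, both on the same side of 1. The median score at MSLN was 3.44 in the untreated list and 0.915 and 0.982 in the romidepsin lists, and the scale of the score is not given.

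As totals, covered bases at MSLN rose with romidepsin in and after the gene. Upstream, romidepsin peaks also covered bases outside the untreated peaks, such as chr16:801457-802048 in both lists, while other bases there were lost. Inside the gene 1720 bases were covered without drug, 1460 and 1265 with vorinostat, and 4625 and 4766 with romidepsin, a fold change of 2.73 for the last. In untreated cells these bases were 1 peak, from 476 to 2196 bp after the start. Both romidepsin lists had a peak that ended 2096 bp after the start, a separate one from 2332 to 3710 bp with the same edges, and one from 8464 to 9118 bp, near the end of the gene. The vorinostat lists had a peak from 270 to 1390 bp with the same edges, and no peak that overlapped the later ones except 1 of 118 bp in list 1. Upstream of MSLN the lists were closer, with 2934 untreated bases, 2099 and 2078 with vorinostat, and 2672 and 2618 with romidepsin. The 4 kb around the start held 1826 bp in untreated cells and between 1719 and 2317 bp in the treated lists. MSLNL and MIR662 lie within 10 kb of MSLN in the reference assembly, and peaks of the flanks cannot be assigned. The downstream flank had 1676 untreated bases, 1494 and 958 with vorinostat and 2854 and 3913 with romidepsin.

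MUC16, the partner of MSLN, started from the lowest coverage and was called higher with both drugs. In its window on chr19:8949001-9102000, untreated peaks covered 5068 bases, vorinostat peaks 11181 and 13240, and romidepsin peaks 10574 and 11586. All treated lists exceeded the untreated one by at least 2.09-fold, with mean fold changes of 2.41 and 2.19, and the direction was the same under every alternative tried. With only peaks of a score of at least 1 kept, however, the fold changes were 1.24 and 1.18, under the 1.5-fold threshold. Tiles with 1 to 5% untreated coverage had median fold changes of 1.15 and 0.791, with upper quartiles of 1.85 and 1.43. Even so, treated peaks covered only 6.91 to 8.65% of the window. They were narrow, with median widths of 175.0 to 185.0 bp.

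No list had a peak over the start of MUC16 used here, and the further upstream starts of the reference annotation were not examined. In the 4 kb around it no base was covered in untreated cells, and 415, 153, 147 and 177 bp in the treated lists, by 3, 1, 1 and 1 peaks. Inside the gene 3761 bases were covered without drug, 8468 and 10655 with vorinostat and 6247 and 7566 with romidepsin. The gene was divided into parts after the peaks were seen. From 35 to 65 kb after the start 972 bases were covered without drug, 4141 and 4445 with vorinostat and 3591 and 3391 with romidepsin. From 65 to 100 kb no base was covered in untreated cells, and 51, 158, 404 and 401 in the treated lists. From 100 kb to the gene end the untreated list had 2662 bases, the vorinostat lists 3909 and 4862 and the romidepsin lists 1925 and 3084, so that the romidepsin lists lay on both sides of the untreated value there. In the downstream flank romidepsin lists had 2712 and 1820 bases, vorinostat lists 1165 and 984, and the untreated list 622. The protein-coding gene MBD3L1 lies within 10 kb of MUC16 in the reference assembly, and peaks of the flanks cannot be assigned.

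Set beside each other, the drugs differed at some of these genes. Both romidepsin lists covered more bases than both vorinostat lists at 3 of the 7 genes, MSLN, EPCAM and FOLR1, by factors of 2.29, 1.44 and 1.11. In 38.6% of the genome tiles the romidepsin lists were likewise both above, and in 31.7% both below, which was the case at none of the 7 genes. At PAX8, WT1, WFDC2 and MUC16 the lists of the drugs overlapped, with romidepsin over vorinostat between 0.907 and 1.04. Such separation is common in these lists, and with 1 sample per drug it cannot be told apart from a difference between samples. The drugs were given at equal multiples of their own IC50, not at equal concentrations.

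The bases covered before treatment were kept to very different degrees. At PAX8, 80.8 to 88.0% of the untreated covered bases were also covered in the treated lists, where 75.3 to 82.9% of the whole window was covered. At FOLR1 61.9 to 65.7% were kept, and at EPCAM 44.5 and 53.3% with vorinostat and 63.3 and 59.2% with romidepsin. WFDC2 kept 36.3 to 44.0%, WT1 23.1 to 35.9% and MUC16 10.3 to 20.2%. Over the chromosomes with peaks in all lists, 41.9 to 45.2% of the untreated bases were kept, so PAX8, FOLR1 and EPCAM lay above and WFDC2, WT1 and MUC16 below the share of the same list in all 4. MSLN kept 41.7 and 35.8% with vorinostat and 49.4 and 65.3% with romidepsin. These shares are to be read beside the coverage of each window, which was also highest at PAX8 and lowest at MUC16.

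Most treated bases at MUC16 were outside the untreated peaks, 92.0 and 92.3% with vorinostat and 95.1 and 93.9% with romidepsin. At PAX8 8.18 to 10.1% were. Over the chromosomes with peaks in all lists the shares were 52.9 and 51.3% with vorinostat and 54.2 and 52.8% with romidepsin. They too are to be read beside the untreated coverage, which was 3.31% at MUC16 and 84.7% at PAX8. The position of the added MUC16 bases was only partly shared between the lists. The shared bases divided by the bases covered in either list (the Jaccard index, from 0 to 1) were 0.484 between the vorinostat lists, 0.456 between the romidepsin lists, and 0.127 and 0.162 between the drugs for list 1 and list 2. At WT1 these values were 0.458 and 0.496 between the lists of a drug and 0.143 and 0.202 between the drugs. PAX8 had 0.859 and 0.855 between the lists of a drug and 0.743 and 0.686 between drugs. Over the genome they were 0.658 and 0.694 between the lists of a drug and 0.302 and 0.303 between drugs. The lists of a drug were less alike than over the genome at WT1, MUC16 and WFDC2 with both drugs and at EPCAM with vorinostat. At MSLN, with an untreated coverage near that of WT1, they were more alike, at 0.812 and 0.793.

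The starts themselves also differed. Those of PAX8 and WFDC2 lay under peaks in all 5 lists, the start of EPCAM did so too, and the starts of WT1 and FOLR1 in 4 of the 5 lists. MUC16 had no peak over the start used here in any list. At MSLN, whose start is known here to the nearest kb only, a peak crossed the stated position in both vorinostat lists and in the second romidepsin list. Since the gene starts were taken to the nearest kb, edges within 1 kb of a start may lie on its other side, and this applies to the distances given for all 7 genes.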

How the data were processed

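H3AcK9 ChIP-seq peaks of 3 ChIP samples, 1 per condition, were analysed; the 3 input samples have no list and entered no result. The submitters' processing notes name BWA and MACS 1.4.2; read filtering by SOAPnuke is given in the study's methods form. The start and end of each peak and a score of unknown scale were deposited by the authors. The same form gives read counts only as an average, so the depth of each sample and the precision it gives are unknown. The processing notes name hg38, but on 12 of 20 chromosomes peaks lay beyond the hg38 end, and the gene positions used are those of hg19, to the nearest kb. No coordinates were converted.

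A peak was counted where it shared at least 1 bp with a window. Covered bases are the union of peaks clipped to the window. Windows took 10 kb on both sides of a gene, and gene starts 2 kb on both sides. Genome tiles of 50 kb covered the 20 chromosomes with peaks in all 5 lists (others lacked peaks in at least 1 romidepsin list). No test was made, since there is 1 sample per condition. Other marker genes and genes of like pattern were not examined, because no annotation of the build was used here. The members and lists were chosen with earlier results of these data known, all 7 genes are named, and tile classes of untreated coverage and the parts of MUC16 were chosen after seeing the data. Promoter entries were used where the annotated gene length was within 2 kb of that of the window's gene. Strand and neighbouring genes came from GENCODE release 44 and RefSeq GRCh38.p14. Python 3.11.15, NumPy 2.4.6, pandas 2.3.3 and Matplotlib 3.10.9 were used. Interval functions recovered 6 of 6 quantities when tested on simulated data, and 35 of 35 window values equalled those of bedtools 2.31.1. Alternatives were each list alone, a score of at least 1, a width of at least 200 bp, merging across gaps of up to 500 bp, no flanks, at least 50% of a peak inside the window, and tiles of 25 or 100 kb.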

Additional observations from a re-analysis of the deposited data

Results flagged for a closer look

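At MSLN the covered bases of both vorinostat lists were below the untreated value, with a fold change of 0.739, and those of both romidepsin lists above it, with a fold change of 1.69. It is listed here because the drugs moved in opposite directions. With only peaks of a score of at least 1 kept they did not, at 0.136 for vorinostat and 0.576 for romidepsin. The difference between the drugs was not tested, since each has 1 sample.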

How the results depend on the processing

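With 1 sample per condition and the depth of each sample unknown, the alternatives show only how the values depend on handling of the peaks. No paired analysis was possible because each condition has 1 sample and no result comes from a test. With each list alone the median fold change of covered bases was 0.701 and 0.679 for vorinostat, and 0.974 and 0.879 for romidepsin. The fold change of peak number was 2.60 in both vorinostat lists, and 2.67 and 2.94 in those of romidepsin. The main values are means of these same lists, so this is no independent check. With a score of at least 1 the median was 0.188 for vorinostat and 0.576 for romidepsin, and the peak number 1.38 and 1.51. With peaks of at least 200 bp the vorinostat median was 0.640 and the peak number 1.83 and 2.15. With merged peaks the medians were 0.903 and, on the other side of 1, 1.09, and the peak number 1.55 and 1.53. Without flanks the medians were 0.791 and 0.809, and the peak number 2.62 and 2.51. With at least 50% of a peak in the window the vorinostat peak number was 2.59. The cause was not tested.

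Single genes crossed 1 in 9 cases. With merged peaks these were PAX8 (1.03 vorinostat, 1.06 romidepsin), EPCAM (1.26 romidepsin) and FOLR1 (1.09 romidepsin). With a score of at least 1 they were WFDC2 (1.17 and 2.08), EPCAM (1.23 and 1.45) and MSLN (0.576 romidepsin). WT1 and MUC16 kept their direction in all alternatives, but with a score of at least 1 WT1 was at 0.188 and 0.259 and MUC16 at 1.24 and 1.18, no longer called higher. With merged peaks the means of WT1 were 0.667 and 0.659, near the 1.5-fold limit of the lower call. EPCAM with vorinostat was then at 0.799, no longer called lower. The same filter gave 0.106 and 0.137 for PAX8, 0.0616 and 0.530 for FOLR1 and 0.136 for MSLN with vorinostat. Tiles of 25 or 100 kb left the shares of called tiles within 1.5 times.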
